A study of Rattus norvegicus with 12 samples.

Results

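Potassium channel subunits were taken as every transcript record whose gene symbol begins with Kcn, which gave 114 of the 18752 transcript records and 91 of the 17301 genes. They comprised 39 genes for voltage-gated pore subunits, 15 for inward rectifiers, 13 for tandem-pore channels, 11 for channels activated by calcium or sodium and their beta subunits, and 13 for other accessory subunits. Their mRNA levels were measured by RNA sequencing in adult rat ventricular myocytes (ARVMs) of Sprague Dawley rats, isolated by collagenase perfusion and cultured in serum-free medium (M199) with the contraction inhibitor 2,3-butanedione monoxime. ARVMs received 50 MOI (infectious particles per cell) of either Ad-h-NR4A2, an adenovirus that drives full-length human NR4A2 from the CMV promoter, or Ad-GFP, a control adenovirus for eGFP, and RNA was collected 48 h later. Each group held 6 samples, numbered 24 to 29, from 6 independent experiments with myocytes of different rats. No nontransduced cells were analysed here, so both groups carry the virus, the culture and the contraction inhibitor, and NR4A2 was driven far above its level in control cells by a viral promoter. NR4A2 (Nurr1) is an orphan nuclear receptor, and the question was how its overexpression changes the transcriptome of cardiomyocytes.

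Potassium channels return the cardiac membrane to its resting potential after each action potential and hold it there between beats. Voltage-gated pore subunits assemble as tetramers and open during the action potential, inward rectifiers set the resting potential and are gated by ATP or G proteins in some subfamilies, and tandem-pore channels carry background current. In rodent ventricle, early repolarization depends on the transient outward current of Kcnd2, Kcnd3 and Kcna4 channels. Accessory subunits alter gating and surface expression of the pores they bind.

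Levels are given as FPKM, fragment numbers scaled to transcript length and to the mapped fragments of each sample. Being per length, they can be set side by side between genes, but only roughly. Fragments can be split between the records of a gene or between genes at a shared locus. The order of levels and the shares below carry this limit. Low FPKM fell on whole multiples of the value of 1 fragment, and the depth they implied was 18800000 to 28000000 fragments per sample, with similar medians of 23700000 in Ad-GFP and 23600000 in Ad-h-NR4A2. Fragment numbers given below for single genes derive from these steps and cover counting error only. Rat Nr4a2, to which human fragments align in part, had a mean of 0.884 FPKM in Ad-GFP and 524 FPKM in Ad-h-NR4A2, as the labels state. Of 9 cardiomyocyte markers, 9 were above 0, with a summed level of 34722 to 42520 FPKM in Ad-GFP and 30944 to 36655 FPKM in Ad-h-NR4A2. Of these, 3 (Myh7, Ryr2, Pln) were downregulated (7.24% of all genes). Without a limit on fold change, 6 of the 9 were lower at an adjusted p below 0.05 (limma, 21.7% of all genes) and 0 higher. Summed markers of fibroblasts (9.22 to 30.7 against 5.85 to 26.9 FPKM), endothelium (6.46 to 20.6 against 5.48 to 19.8 FPKM) and smooth muscle and pericytes (16.7 to 27.5 against 11.2 to 23.4 FPKM) overlapped between groups. Among them, 1 of 7, 0 of 5 and 2 of 6 genes were downregulated (7.24% of all genes). With the sample number in the limma fit as replicate block, adjusted p was also below 0.05 for Col1a1 (0.00616), Pdgfra (0.0101) and Kdr (0.00409), all lower (59.4% of all genes, either direction). The remaining markers of these lists stayed above 0.05. Summed Schwann and neuron markers also overlapped (5.88 to 9.48 against 5.28 to 7.57 FPKM), and of the 3 genes tested 1, Tubb3, was downregulated. Summed macrophage markers were higher in Ad-h-NR4A2 (6.04 to 17.3 against 37.2 to 44.6 FPKM), through 1 of the 3 genes tested, Csf1r, whereas the leukocyte marker Ptprc stayed near 0 (means of 0.0258 and 0.0218 FPKM). The part of these shifts in the channel results was not tested. In bulk RNA, fewer cells of a type and less RNA per cell cannot be told apart.

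Of the 91 channel genes, 79 had a value above 0 in at least 1 sample and 12 were listed at 0 in all samples. Only 19 reached a mean of 1 FPKM in Ad-GFP. The most abundant was Kcng2 with 62.4 ± 17.1 FPKM (SD, n = 6), an electrically silent subunit (Kv6 family) that modifies Kv2 channels. Kcnj3 followed with 37.7 ± 8.14 FPKM and encodes the Kir3.1 subunit of the acetylcholine-activated channel. Next came the background channel Kcnk3 (TASK-1) with 28.1 ± 6.22, the ATP-sensitive pore Kcnj11 (Kir6.2) with 23.8 ± 1.77, and the inward rectifier Kcnj2 (Kir2.1) with 23.8 ± 2.17 FPKM. Within these 5 genes each neighbour in the order overlapped the next, and the first gap without overlap lay between Kcnj2 (lowest sample 20.5 FPKM) and Kcnq1 (highest sample 13.2 FPKM).

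A second tier of overlapping genes ran from Kcnq1 (11.4 ± 1.55 FPKM) over Kcnj5 (11.2 ± 3.08), Kcnj12 (10.4 ± 2.76), Kcnh2 (8.97 ± 1.11) and Kcnd2 (6.33 ± 1.24) to Kcna2 (6.29 ± 0.932). Kcnn1 (3.48 ± 0.483), Kcnk2 (3.19 ± 0.766) and Kcna4 (2.72 ± 0.221 FPKM) formed the next group. They lay below the second tier without overlap, and Kcnk2 (lowest sample 2.26 FPKM) touched the range of Kcne4 (highest sample 2.28 FPKM) beneath. Means of Kcna7, Kcnd3, Kcne4 and Kcnq5 were between 1 and 2 FPKM. With Ad-h-NR4A2 the order was different, and Kcnj5 (44.7 FPKM), Kcnj3 (30.0 FPKM) and Kcng2 (29.1 FPKM) had the highest means.

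**Figure D1:**
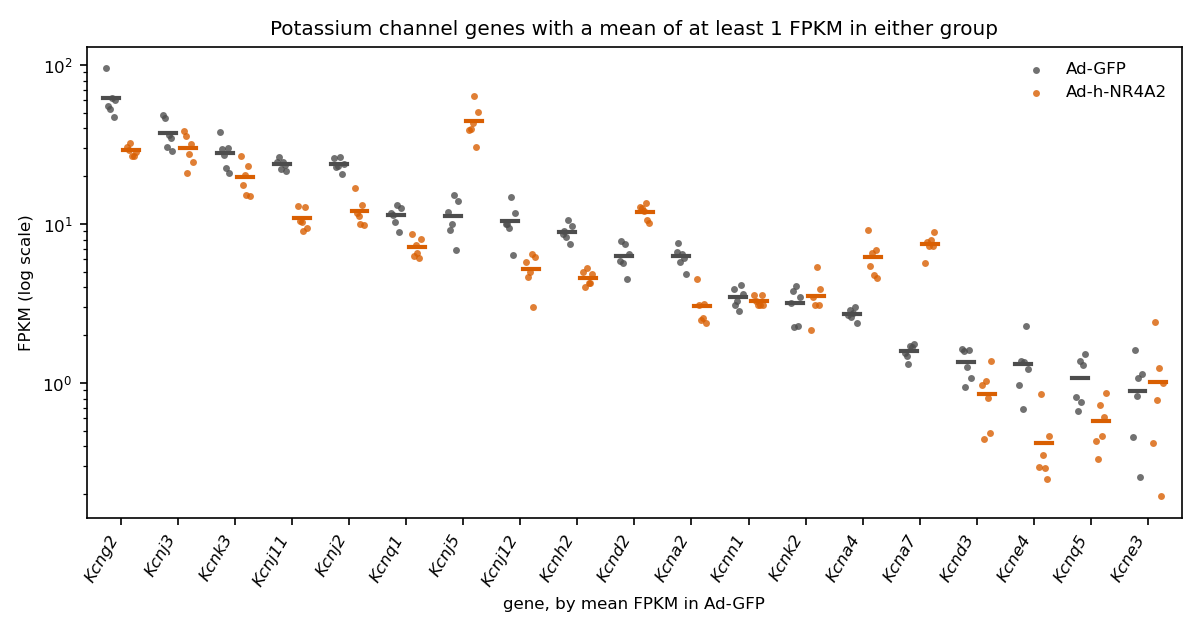
FPKM on a log axis for 19 of the 20 tested potassium channel genes with a mean of at least 1 FPKM in either group, ordered by mean in Ad-GFP. Points are the 6 samples of each group and bars their means. Kcnj5, Kcnd2, Kcna4 and Kcna7 lie higher in all Ad-h-NR4A2 samples, whereas Kcng2, Kcnj11, Kcnj2, Kcnq1, Kcnh2 and Kcna2 lie lower without overlap.

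The 2 groups were then compared by limma, on log2(FPKM + 0.1), for the 37 channel genes above 0 in all 12 samples, as part of a fit of all 10950 such genes. A gene counted as differentially expressed when its adjusted p (Benjamini-Hochberg) was below 0.05 and its mean FPKM differed at least 1.5-fold. With Ad-h-NR4A2, 17 of the 37 channel genes were differentially expressed (45.9%), against 15.2% of all genes tested. Of these, 5 were upregulated (7.94% of all genes) and 12 were downregulated (7.24% of all genes). The median log2 fold change was -0.20 over the 37 channel genes and -0.02 over all genes tested. Without the limit on fold change, 18 channel genes had an adjusted p below 0.05 (40.9% of all genes), 5 of them higher (19.3%) and 13 lower (21.7%).

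Most calls were of members at higher levels. Of the 20 tested channel genes with a mean of at least 1 FPKM in either group, 15 were differentially expressed, 4 upregulated and 11 downregulated, against 14.5% of all genes at that level. Of the 17 below that level, 2 were (18.7% of all genes). The groups did not overlap for 12 channel genes (21.5% of all genes), 4 of them higher (10.9%) and 8 lower (10.6%) with Ad-h-NR4A2, and all 12 were differentially expressed. Of the 17 called genes, 16 moved alike in each of the 6 pairs of samples with the same number, the exception being Kcnd3. Because called genes were selected for a difference between the groups, that count is no separate support. Over all 37 channel genes tested, 19 moved alike in all 6 pairs, which is close to the share over all genes (53.2%). When the sample number entered the fit as replicate block, 21 channel genes had an adjusted p below 0.05 (59.4% of all genes) and 18 were differentially expressed (16.7% of all genes).

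**Figure D2:**
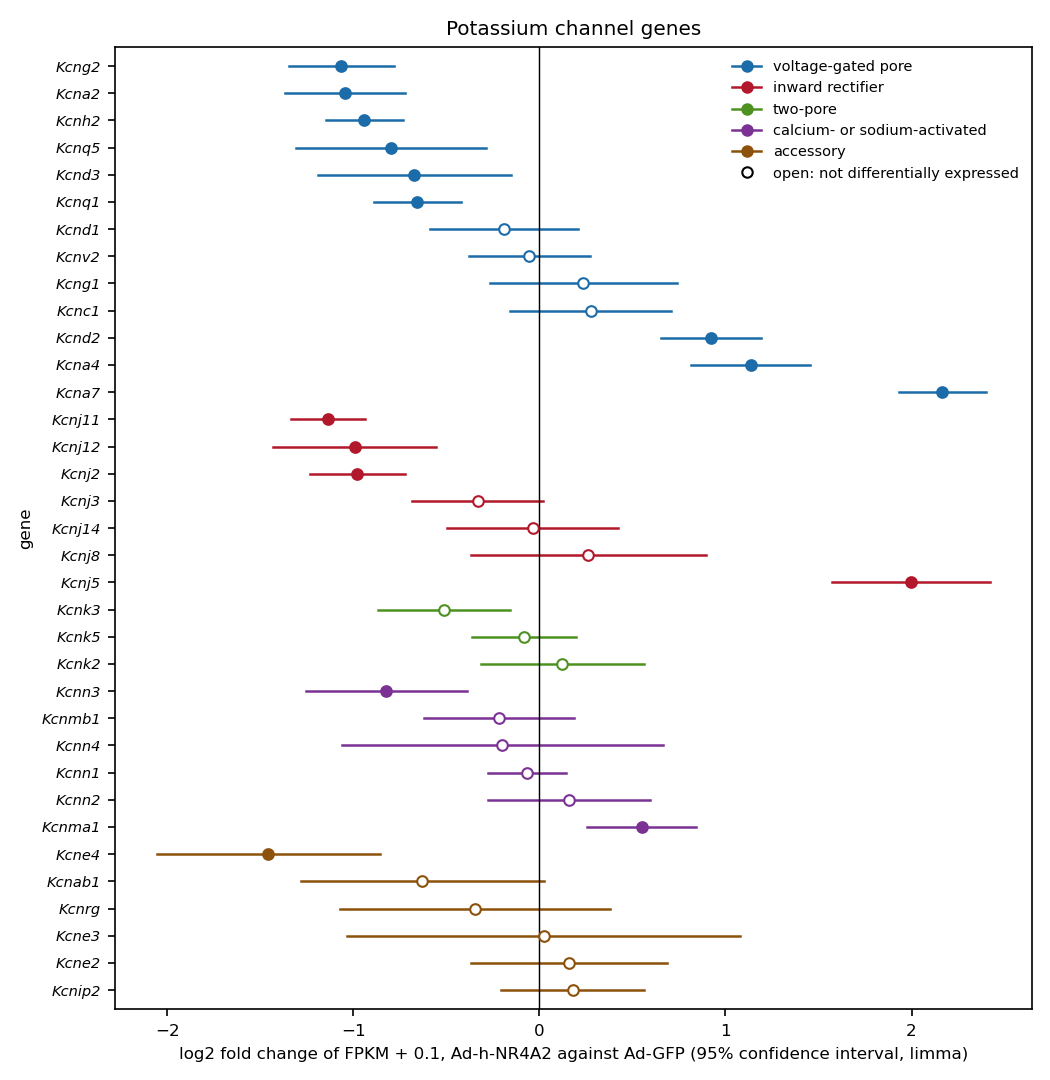
Log2 fold change of FPKM + 0.1 (x axis) for 35 of the 37 potassium channel genes tested (y axis), colored by class. Lines are 95% confidence intervals from limma, and filled points mark the 16 of them that were differentially expressed. Kcna7 (2.16) and Kcnj5 (2.00) lie farthest to the right, and Kcne4 (-1.46) and Kcnj11 (-1.14) farthest to the left.

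Among the voltage-gated pores, 15 of 39 genes were tested, and 3 were upregulated and 7 downregulated. Upregulation concerned Kcna7, Kcna4 and Kcnd2. Kcna7, which encodes the Kv1.7 subunit found in heart and skeletal muscle (Rn5, chr1:102477238-102482730), had 1.32, 1.62 and 1.76 FPKM in Ad-GFP (lowest, median and highest sample) and 5.69, 7.50 and 8.95 FPKM in Ad-h-NR4A2. The groups were far apart. The ratio of means was 4.73, and the log2 fold change of 2.16 (SE 0.11, adjusted p = 7.36e-09, limma) was the largest among channel genes tested.

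Kcna4, the Kv1.4 pore of the slowly recovering transient outward current (chr3:104901966-104905092), ranged from 2.38 to 3.01 FPKM (median 2.72) in Ad-GFP and from 4.60 to 9.26 FPKM (median 6.02) in Ad-h-NR4A2. All Ad-h-NR4A2 samples lay above all Ad-GFP samples (log2 fold change 1.14, SE 0.15, adjusted p = 4.30e-05). Kcna2, a delayed rectifier of the same Kv1 subfamily (chr2:229304228-229308358), moved the other way. It had 4.88, 6.34 and 7.66 FPKM in Ad-GFP and 2.39, 2.85 and 4.50 FPKM in Ad-h-NR4A2, with no overlap (log2 fold change -1.05, SE 0.15, adjusted p = 8.85e-05). The makeup of the Kv1 subfamily therefore differed between groups. Of the summed FPKM of all Kcna genes, Kcna2 made up 59.0% ± 3.49 (SD, n = 6) in Ad-GFP and 17.9% ± 3.03 in Ad-h-NR4A2, while Kcna7 made up 15.0% ± 2.43 and 45.2% ± 9.31, and Kcna4 25.7% ± 1.44 and 36.8% ± 6.99. None of these shares overlapped between groups. Kcna5, the pore of the ultrarapid current in other species, was above 0 in 4 Ad-GFP samples and 1 Ad-h-NR4A2 sample, with at most 2 fragments, and was not tested.

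**Figure D3:**
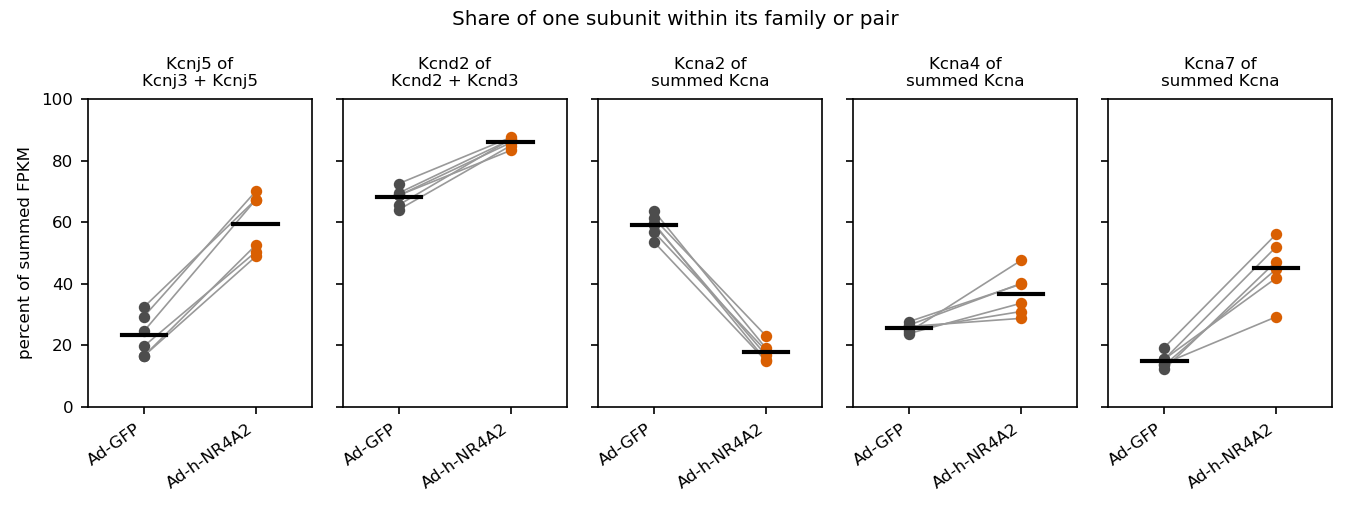
Percent of summed FPKM taken by 1 subunit, for Kcnj5 among Kcnj3 and Kcnj5, for Kcnd2 among Kcnd2 and Kcnd3 (transcripts summed), and for Kcna2, Kcna4 and Kcna7 among all Kcna genes. Points are samples, lines join same-numbered samples, and bars are means. Each share lies higher in all 6 Ad-h-NR4A2 samples except that of Kcna2, which lies lower.

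The fast transient outward current is carried in rodents by Kcnd2 (Kv4.2) and Kcnd3 (Kv4.3). Kcnd2 (chr4:48099455-48609211) had 4.53, 6.17 and 7.87 FPKM in Ad-GFP and 10.2, 12.3 and 13.6 FPKM in Ad-h-NR4A2. The groups did not overlap, and the ratio of means was 1.89 (log2 fold change 0.92, SE 0.12, adjusted p = 5.40e-05). The most abundant Kcnd3 transcript (chr2:227345052-227561680) went down, from 0.951, 1.42 and 1.65 FPKM to 0.447, 0.891 and 1.38 FPKM. Here the groups overlapped, and the change of -0.67 (SE 0.24, adjusted p = 0.0384) had the highest adjusted p of the 17 calls.

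Kcnd3 has 3 transcript records at the same locus, and the FPKM of 1 sample shifted between them without order: for NM_001270963, Ad-GFP samples ranged from 0.00437 to 1.51 FPKM. Fitted record by record (39.1% of all records had an adjusted p below 0.05), NM_001270962 and NM_031739 had log2 fold changes of -0.67 (adjusted p = 0.0486) and -1.87 (adjusted p = 0.0201), and NM_001270963 one of 1.02 (adjusted p = 0.346). The sum of the 3 was steadier, at 1.99, 2.99 and 3.44 FPKM in Ad-GFP and 1.60, 1.93 and 2.29 FPKM in Ad-h-NR4A2, lower in 6 of 6 pairs. It passed the test (-0.55, SE 0.13, adjusted p = 0.00479) but with a ratio of 0.669 not the limit on fold change. On summed transcripts, Kcnd2 made up 68.2% ± 2.98 of Kcnd2 and Kcnd3 in Ad-GFP and 85.9% ± 1.57 in Ad-h-NR4A2, and the groups did not overlap.

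Kcnip2 (KChIP2), the cytoplasmic subunit that Kv4 channels need for normal surface expression, was listed at low levels of 0.175, 0.280 and 0.396 FPKM in Ad-GFP and 0.225, 0.308 and 0.425 FPKM in Ad-h-NR4A2. It did not pass the test (log2 fold change 0.18, 95% confidence interval -0.20 to 0.56, adjusted p = 0.455). Its level is uncertain, because Rn5 holds Kcnip2 records at 2 loci of chromosome 1 with the same transcript names and lengths, between which fragments can be split. One of these loci is shared with Hpse2. The 6 records summed gave 0.583 ± 0.175 (SD, n = 6) and 0.536 ± 0.117 FPKM.

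The silent subunit Kcng2 (chr18:71933314-71999524) fell from 47.1, 58.0 and 95.5 FPKM to 26.9, 28.8 and 32.4 FPKM. The groups did not overlap (-1.06, SE 0.13, adjusted p = 2.62e-05), and the highest Ad-GFP value came from sample 24, which stood apart from the other 5 (47.1 to 62.2 FPKM).

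Kcns3 (Kv9.3), another silent subunit of Kv2 channels (chr6:46515725-46571008), is named here after its values were seen. It was listed at 0 in 1 Ad-GFP sample and was therefore not in the main fit. Ad-GFP samples held 0, 0.0446 and 0.0992 FPKM (lowest, median and highest), at most 4 fragments, and Ad-h-NR4A2 samples held 0.237, 0.881 and 1.96 FPKM, or 11 to 97 fragments. No sample of the groups overlapped. An exact permutation test (two-sided) then gives its minimum for 6 against 6 samples, p = 0.00216. Because Kcns3 was picked for these values, neither this p nor the fit below is separate support. In a fit of all genes with any value above 0, of which 13.6% were differentially expressed, Kcns3 rose by 2.80 (SE 0.36, adjusted p = 6.32e-05, limma). Kcnk16 also passed there, at no more than 7 fragments in any sample. Thus of these 2 silent subunits, Kcng2 fell and Kcns3 was higher.

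For the slow delayed rectifier, Kcnq1 (chr1:223154713-223490458) had 8.96, 11.6 and 13.2 FPKM in Ad-GFP and 6.15, 6.98 and 8.65 FPKM in Ad-h-NR4A2. It was downregulated without overlap, though moderately (ratio 0.632, log2 fold change -0.66, SE 0.11, adjusted p = 3.24e-04). Its beta subunit Kcne1 was near the detection limit, with at most 7 fragments per sample, and was listed at 0 in 1 Ad-h-NR4A2 sample. Kcnq5, known from neurons and smooth muscle, had 0.672, 1.06 and 1.52 FPKM against 0.332, 0.541 and 0.873 FPKM and was lower in all 6 pairs (-0.80, SE 0.24, adjusted p = 0.0161). The neuron marker Tubb3 was lower as well, at 2.06 and 0.666 FPKM (adjusted p = 4.31e-05, limma), and its part in the Kcnq5 result was not tested.

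For the rapid delayed rectifier, Kcnh2 (ERG; chr4:7366964-7398604) had 7.47, 8.85 and 10.6 FPKM in Ad-GFP and 4.01, 4.56 and 5.29 FPKM in Ad-h-NR4A2. The groups did not overlap, and the fold change was -0.94 (SE 0.10, adjusted p = 4.67e-06). Its proposed partner Kcne2 was at 0.201 ± 0.0986 and 0.233 ± 0.103 FPKM (SD, n = 6), and a change was not detectable with 3 to 15 fragments per sample (log2 fold change 0.16, 95% confidence interval -0.37 to 0.69). The voltage-gated genes Kcnc1, Kcnd1, Kcng1 and Kcnv2 were not called, and their highest value in any sample was 0.196 FPKM (Kcng1).

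Among the inward rectifiers, 7 of 15 genes were tested, 1 of which was upregulated and 3 downregulated. The 2 pores of the classical inward rectifier current that stabilizes the resting potential both fell. Kcnj2 (chr10:99130687-99131970) had 20.5, 23.4 and 26.4 FPKM in Ad-GFP and 9.87, 11.5 and 17.0 FPKM in Ad-h-NR4A2, with no overlap (log2 fold change -0.98, SE 0.12, adjusted p = 2.06e-05). Kcnj12 (Kir2.2; chr10:47055582-47114622) had 6.44, 10.0 and 14.8 FPKM and 2.99, 5.39 and 6.53 FPKM. The ranges touched in a narrow overlap, but each Ad-h-NR4A2 sample lay below its same-numbered Ad-GFP sample (-0.99, SE 0.20, adjusted p = 0.00160). The share of Kcnj2 in the summed Kcnj2, Kcnj12, Kcnj4 and Kcnj14 was 68.8% ± 3.77 in Ad-GFP and 67.8% ± 7.36 in Ad-h-NR4A2 (SD, n = 6). Kcnj4 had at most 3 fragments in a sample, and Kcnj14 was at 0.490 ± 0.162 and 0.475 ± 0.151 FPKM (log2 fold change -0.04, 95% confidence interval -0.50 to 0.42).

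Kcnj11, the pore of the ATP-sensitive channel that couples metabolism to excitability (chr1:103186859-103189892), had 21.6, 24.02 and 26.4 FPKM in Ad-GFP and 9.08, 10.4 and 13.0 FPKM in Ad-h-NR4A2. It was downregulated without overlap (ratio 0.456, log2 fold change -1.14, SE 0.09, adjusted p = 5.71e-07). The vascular-type pore Kcnj8 (Kir6.1) was scarce, at 0.363, 0.482 and 0.943 FPKM against 0.274, 0.591 and 1.34 FPKM, and did not pass the test (0.26, 95% confidence interval -0.37 to 0.90, adjusted p = 0.508). Both sulfonylurea receptors, the regulatory subunits of this channel, were lower as well. Abcc8 (SUR1) went from 10.6 to 4.39 FPKM (log2 fold change -1.27, SE 0.11, adjusted p = 1.05e-06) and was downregulated, and Abcc9 (SUR2), the more abundant, went from 77.5 to 57.5 FPKM (-0.42, SE 0.08, adjusted p = 7.18e-04), a ratio of 0.742 within the limit on fold change.

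The subunits of the acetylcholine-activated channel, which slows the heart upon vagal stimulation in atrium and nodes, are given side by side. Kcnj5 (Kir3.4) had 6.89, 11.02 and 15.2 FPKM in Ad-GFP and 30.7, 41.6 and 64.4 FPKM in Ad-h-NR4A2. Every Ad-h-NR4A2 sample was above every Ad-GFP sample, by 821 to 1457 against 179 to 405 fragments. The ratio of means was 3.99 and the log2 fold change 2.00 (SE 0.20, adjusted p = 3.59e-06). Kcnj3 (chr3:46103695-46264737) had medians of 35.6 FPKM (1121 to 1787 fragments) in Ad-GFP and 29.8 FPKM (852 to 1634 fragments) in Ad-h-NR4A2, a log2 fold change of -0.33 (95% confidence interval -0.68 to 0.02) that did not pass the test (adjusted p = 0.121). It was lower in all 6 pairs, and with the replicate block its adjusted p was 4.37e-04 (3.80e-04 to 0.253 over all alternatives), with a ratio of 0.797 that stayed within the limit on fold change. Kcnj5 thus made up 23.2% ± 6.71 of the 2 subunits in Ad-GFP and 59.4% ± 9.78 in Ad-h-NR4A2 (SD, n = 6), with 32.4% the highest and 48.9% the lowest sample.

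The Kcnj5 locus in Rn5 (chr8:32718819-33510083) is long because it is shared with the record LOC100362981, which was listed at 0 in all 12 samples. Of the atrial markers, Nppa, Sln and Myl7, 0 of 3 passed the unpaired test, with summed levels of 70.6 to 401 FPKM in Ad-GFP and 80.0 to 406 FPKM in Ad-h-NR4A2. With the replicate block (limma), adjusted p was 0.00298 for Nppa (log2 fold change 0.15) and 0.0226 for Sln (-1.07). For Myl7 it was 0.414 (0.16). Of the pacemaker markers, Hcn4 was at 1.31 and 0.879 FPKM, and Shox2 and Cacna1g were at or near 0. Hcn4 had an adjusted p of 0.0646 in the unpaired limma fit and of 0.00296 with the replicate block.

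Of the 13 tandem-pore genes, 3 were tested and 0 met both limits, by limma at an adjusted p below 0.05 and 1.5-fold. Kcnk3 had 20.9, 28.5 and 38.2 FPKM in Ad-GFP and 15.1, 19.1 and 26.7 FPKM in Ad-h-NR4A2. It was lower in all 6 pairs and passed the test (log2 fold change -0.51, SE 0.16, adjusted p = 0.0232), but its ratio of 0.701 was short of the limit. Kcnk2 (TREK-1), a stretch-sensitive background channel, was at 2.26, 3.35 and 4.09 FPKM and 2.16, 3.29 and 5.37 FPKM (log2 fold change 0.12, 95% confidence interval -0.31 to 0.56, adjusted p = 0.663). Kcnk5 stayed below 0.2 FPKM.

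Among the genes of calcium- or sodium-activated channels, 6 of 11 were tested, and 1 was upregulated and 1 downregulated. Kcnn1 was the main small-conductance (SK) pore, with 2.86, 3.45 and 4.12 FPKM in Ad-GFP and 3.10, 3.20 and 3.61 FPKM in Ad-h-NR4A2. A change was not found (-0.07, 95% confidence interval -0.27 to 0.14, adjusted p = 0.626), and Kcnn2 at 0.287 ± 0.102 and 0.327 ± 0.0874 FPKM did not pass either (adjusted p = 0.571). Kcnn3 was scarce and downregulated, from 0.269, 0.387 and 0.411 FPKM to 0.0468, 0.191 and 0.246 FPKM without overlap, at 14 to 27 against 3 to 14 fragments (-0.82, SE 0.20, adjusted p = 0.00521). Kcnma1, the large-conductance BK pore, was upregulated from trace levels of 1 to 5 fragments in Ad-GFP to 4 to 17 fragments in Ad-h-NR4A2 (0.0198 ± 0.00909 to 0.0771 ± 0.0294 FPKM, SD, n = 6). Its ratio of means was 3.89, whereas its fold change on the log2(FPKM + 0.1) scale, which understates low genes, was 0.55 (SE 0.14, adjusted p = 0.00540). The BK beta subunit Kcnmb1, typical of smooth muscle, held 1 to 5 fragments per sample and did not pass the test (adjusted p = 0.381). Kcnn4, with 4 transcript records, entered the fit through values down to 1.89e-12 FPKM and was not called.

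Of the 13 accessory genes, 6 were tested and 1 was differentially expressed. Kcne4, a beta subunit that inhibits some Kv1 and Kcnq1 channels, was downregulated. It had 0.687, 1.29 and 2.28 FPKM in Ad-GFP and 0.249, 0.326 and 0.857 FPKM in Ad-h-NR4A2, which is 7 to 29 against 3 to 11 fragments (log2 fold change -1.46, SE 0.28, adjusted p = 9.10e-04). The ranges overlapped, and Ad-h-NR4A2 sample 25 stood apart from the other 5. Kcnab1, the Kv beta subunit, was lower in all 6 pairs at 0.309 ± 0.178 and 0.151 ± 0.0708 FPKM (SD, n = 6). It did not pass the main test (-0.63, SE 0.30, adjusted p = 0.113) but was differentially expressed with the replicate block (adjusted p = 0.00955, 0.00884 to 0.230 over all alternatives). Kcne3, whose locus is shared with LOC100912071, was at 0.894 ± 0.491 and 1.01 ± 0.788 FPKM with wide spread (adjusted p = 0.975). Kcnab2 and Kcne5 were above 0 in at most 2 samples of a group, and Kcnrg was not called (adjusted p = 0.445).

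Most channel genes were scarce in these myocytes. Of the 54 members not tested, 12 were listed at 0 in all samples, namely Kcna10, Kcng3, Kcnh5, Kcnip1, Kcnip4, Kcnj6, Kcnk6, Kcnk9, Kcnk12, Kcnk18, Kcnmb3 and Kcns2. None of the values of channel records was marked as a failed estimate. The other 42 had a value above 0 in at least 1 sample. Apart from Kcns3 and Kcne1, none of the 54 reached a group mean of 0.1 FPKM, with 0.0695 FPKM (Kcng4) the highest mean in Ad-GFP and 0.0940 FPKM (Kcnc4) in Ad-h-NR4A2.

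Summed over all 91 genes, potassium channel FPKM ranged from 224 to 315 (median 254) in Ad-GFP and from 197 to 232 (median 206) in Ad-h-NR4A2. The sum was lower in Ad-h-NR4A2, with some overlap. The voltage-gated pores accounted for most of the difference, with 88.8 to 142 FPKM in Ad-GFP and 71.2 to 81.2 FPKM in Ad-h-NR4A2, and no overlap. Nearly all of this lay in the silent subunit Kcng2. Its mean went from 62.4 to 29.1 FPKM, and that of the whole class from 110 to 75.3 FPKM. The other voltage-gated genes, some higher and some lower, changed the class sum little. The inward rectifiers summed to similar values, 93.0 to 123 and 92.1 to 119 FPKM, since Kcnj5 was higher and Kcnj2, Kcnj11 and Kcnj12 were lower. Inward rectifiers therefore made up 42.0% ± 1.93 of channel FPKM in Ad-GFP and 49.5% ± 3.01 in Ad-h-NR4A2, and voltage-gated pores 42.4% ± 2.43 and 35.9% ± 2.08 (SD, n = 6). Neither share overlapped between groups. Tandem-pore genes held 12.2% ± 1.82 and 11.2% ± 1.64, and the 2 remaining classes stayed below 3% in every sample.

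**Figure D4:**
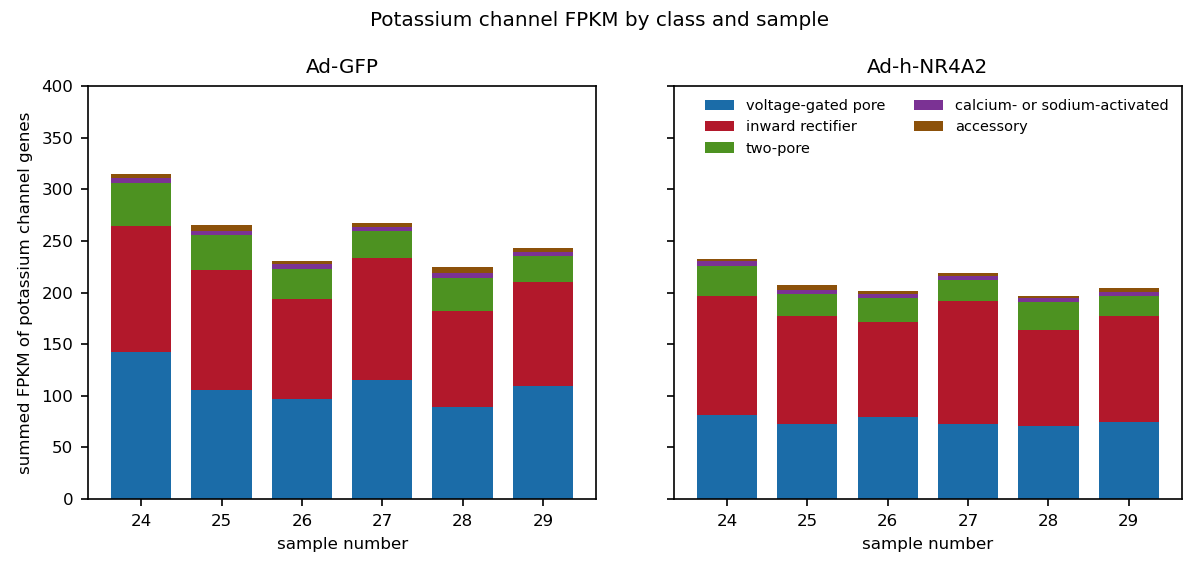
Summed FPKM of potassium channel genes (y axis) by class in each sample (x axis, sample number), for Ad-GFP on the left and Ad-h-NR4A2 on the right. The voltage-gated part is smaller in every Ad-h-NR4A2 sample (71.2 to 81.2 FPKM) than in any Ad-GFP sample (88.8 to 142 FPKM). Kcng2, with means of 29.1 and 62.4 FPKM, makes up nearly all of that difference. The inward rectifier part is alike.

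Proteins that bind or anchor these channels were examined as a list of 16 genes, of which 15 were in the files and 9 were tested. Of these 9, 2 were downregulated (7.24% of all genes) and 0 were upregulated (7.94% of all genes). Besides Abcc8, the downregulated gene was Dlg1 (SAP97), a scaffold that anchors Kv1 and Kir2 channels, with 28.7 and 18.5 FPKM (log2 fold change -0.63, SE 0.09, adjusted p = 1.30e-04). Akap9 (yotiao), which ties protein kinase A to Kcnq1, was at 13.1 and 9.03 FPKM (-0.54, SE 0.07, adjusted p = 6.56e-05) with a ratio of 0.687, short of the limit. Transcription factors tied to cardiac channel expression were a list of 9 genes, chosen with earlier results of these data known, and 8 were tested. Of these 8, 1 was upregulated (Tbx20; 7.94% of all genes) and 4 were downregulated (Irx4, Tbx5, Gata4, Klf15; 7.24% of all genes). Irx4, a ventricular homeobox factor, fell from 10.0 to 2.97 FPKM (-1.76, SE 0.28, adjusted p = 2.44e-04). Klf15, a factor known to control Kcnip2 and repolarization, fell from 23.4 to 11.4 FPKM (-1.05, SE 0.13, adjusted p = 2.64e-05). Irx5, a known repressor of Kcnd2 in mouse ventricle, was at 9.63 and 7.07 FPKM (-0.44, SE 0.09, adjusted p = 0.00127), within the limit on fold change. Kcnip2 itself did not pass the limma test (log2 fold change 0.18, adjusted p = 0.455), and Kcnd2 was upregulated (0.92). The part of these factors in the channel levels was not tested.

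NR4A2 can bind DNA as a monomer at the NBRE, with the letters AAAGGTCA, and promoter windows were searched for these letters on both strands. RefSeq windows on GRCr8, from 250 bases before to 50 after each gene start, were on hand for 62 of the 91 channel genes. NBRE letters stood in the windows of 3 members, Kcnc4, Kcne5 and Kcnh1, none of which was tested, and in 1.43% of all 33469 windows. None of the 11 differentially expressed members with a window held them, and the shorter AGGTCA, contained in the NBRE and added after the first search, stood in 5 members and 0 called ones (16.2% of all windows). The GC box letters GGGCGG, on either strand, stood in 32 of the 62 members with a window and in 8 of the 11 called ones (33.1% of all windows). Members are counted by gene and the percentages by window, so they are unlike units. The 62 members held 68 windows. A match is a description and not a bound site, and the absence of the letters applies to these windows only. No window was on hand for Kcna7, Kcnh2, Kcnj11, Kcnj12 and Kcnq1, among others.

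The 250 bases before the start are shown for the upregulated members Kcnj5, Kcna4 and Kcnd2, and for the downregulated Kcnj2, to let their sequences be compared. GC box letters are in capitals, and all else is in lower case (RefSeq, GRCr8, 5′ to 3′).
Kcnj5, chr8:39011097-39011346, minus strand: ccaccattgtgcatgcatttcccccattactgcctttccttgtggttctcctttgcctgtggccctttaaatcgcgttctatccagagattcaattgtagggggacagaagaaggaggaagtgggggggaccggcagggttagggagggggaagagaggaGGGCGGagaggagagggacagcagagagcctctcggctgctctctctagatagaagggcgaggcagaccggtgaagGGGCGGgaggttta
Kcna4, chr3:114215086-114215335, plus strand: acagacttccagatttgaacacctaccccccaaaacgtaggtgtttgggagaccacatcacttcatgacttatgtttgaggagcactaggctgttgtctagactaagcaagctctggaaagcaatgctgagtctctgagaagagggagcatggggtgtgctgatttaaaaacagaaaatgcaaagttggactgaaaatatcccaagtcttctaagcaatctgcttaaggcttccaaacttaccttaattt
Kcnd2, chr4:50742235-50742484, plus strand: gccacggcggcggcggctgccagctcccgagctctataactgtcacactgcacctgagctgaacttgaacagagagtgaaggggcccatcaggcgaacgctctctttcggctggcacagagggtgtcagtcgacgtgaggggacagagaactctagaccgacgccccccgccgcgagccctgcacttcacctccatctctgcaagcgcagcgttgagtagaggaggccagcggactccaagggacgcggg
Kcnj2, chr10:96559975-96560224, plus strand: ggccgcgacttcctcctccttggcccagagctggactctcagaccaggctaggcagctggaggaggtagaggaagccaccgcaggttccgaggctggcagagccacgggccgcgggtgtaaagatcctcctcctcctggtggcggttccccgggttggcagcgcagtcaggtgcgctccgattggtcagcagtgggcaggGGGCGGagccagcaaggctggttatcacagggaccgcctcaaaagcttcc
Kcnj5 and Kcnj2, which moved in opposite directions, both hold GC box letters, and Kcna4 and Kcnd2, which rose together, hold none in these 250 bases.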

How the data were processed

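RNA of 12 ARVM cultures, 6 of each group (50 MOI, 48 h), was sequenced. Per the study's methods and the submitters' processing notes, the authors made stranded libraries of mRNA, ran all samples together, aligned reads to Rn5 with STAR and quantified RefSeq transcripts with Cufflinks. The version of STAR, and whether counting used the strand, are not given in the sources used here. The deposited FPKM are normalized by the authors to transcript length and mapped fragments. They are not counts, and genes that share a locus can share fragments.

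Of a gene with several transcripts, the record with the highest mean FPKM was used. The 10950 genes without a 0 in any sample entered the test, in which log2(FPKM + 0.1) was modelled with limma 3.58.1 (lmFit, eBayes with trend) in R 4.3.3, two-sided and unpaired, with Benjamini-Hochberg adjustment over all genes. Differential expression required an adjusted p below 0.05 and a ratio of mean FPKM of at least 1.5. An exact permutation test (two-sided, 924 splits) was added for single genes. Depth was recovered from FPKM steps of transcripts of at least 800 nucleotides, and 99.6% to 99.9% of values of at most 6 fragments came out whole within 0.05. The fit was tested on simulated data. Tables were made in Python 3.11.15 (pandas 2.3.3, SciPy 1.17.1, NumPy 2.4.6) and plots with Matplotlib 3.10.9.

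The labels give samples of both groups the numbers 24 to 29. Deviations from the group means correlated by 0.347 to 0.623 between same-numbered samples (mean -0.0998 between others), so the numbers were taken to pair the samples, and the replicate block was an alternative. Named genes are the differentially expressed members, a list of cardiac current genes and the 5 most abundant members in Ad-GFP. Kcns3 and Kcnk16 were named after their values were seen. The members and all lists were chosen with earlier results of these data known. Shares and summed levels were described without a test. As alternatives, the pseudocount was set to 1 or 0.01, the filter was dropped or set to a mean of 1 FPKM, values were rescaled to TPM or quantile-normalized, and limma was run without trend, with the replicate block, on summed transcripts, with a fold-change limit of 2, and with each sample left out. Chosen after seeing the data were values below 1e-06 set to 0, and the replicate block on summed transcripts. Protein sequences were not used here, and values of some single genes are not reported here, although counts and sums over the members include them.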

Additional observations from a re-analysis of the deposited data

Results flagged for a closer look

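In 58 groups of 6 samples, that is both groups of 29 named genes, 5 had a sample whose gap to its nearest neighbour, as a share of the whole range, exceeded Dixon's critical value at 95%. Chance gives about 1 in 20 groups, or 2.9 here. For Kcng2, Ad-GFP sample 24 was at 95.5 FPKM and the other 5 at 47.1 to 62.2 FPKM (0.688 of the range). For Kcna2, Ad-h-NR4A2 sample 24 was at 4.50 FPKM and the others at 2.39 to 3.16 FPKM (0.635). For Kcne4, Ad-h-NR4A2 sample 25 was at 0.857 FPKM and the others at 0.249 to 0.462 FPKM (0.650). For Kcnj8, Ad-GFP sample 25 was at 0.943 FPKM and the others at 0.363 to 0.513 FPKM (0.740). For Kcnmb1, Ad-h-NR4A2 sample 29 was at 0.196 FPKM and the others at 0.0373 to 0.0837 FPKM (0.708). Kcng2, Kcna2 and Kcne4 were downregulated with each of these samples left out.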

How the results depend on the processing

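With a fold-change limit of 2, 11 channel genes were differentially expressed, 7 of them downregulated, and 803 of all genes, since Kcnd2, Kcnd3, Kcnh2, Kcnj2, Kcnq1 and Kcnq5 changed less than that. Under the other alternatives the number of channel genes called lay within 1.5 times of 17. With each sample left out in turn it was 16 to 18, with 5 upregulated and 11 to 13 downregulated, and 16 to 18 had an adjusted p below 0.05. For 29 named genes and the 23 alternatives that keep the limit of 1.5, 655 values were obtained, of which 640 kept their call, 10 lost it, 5 gained it and 0 reversed. Of the 17 called genes, 16 were called in each of these 23 alternatives they entered, the exception being Kcnd3. Kcnd3 lost its call with transcripts summed, with or without the replicate block (log2 fold change -0.55, a ratio short of the limit), with no filter on low values, and without Ad-GFP samples 24, 25, 27 or 28 or Ad-h-NR4A2 samples 25, 27 or 28. Kcnk3 met both limits without Ad-GFP sample 29 (-0.59) or Ad-h-NR4A2 sample 24 (-0.61), and Kcnab1 without Ad-GFP sample 27 (-0.84). With the replicate block, which pairs samples by number, 18 channel genes were differentially expressed. Kcnab1 was added (-0.63), and no other call changed. The median log2 fold change of all genes was -0.04 with TPM scaling and also -0.04 with quantile normalization. Depth limits members below about 1 FPKM, which rest on few fragments.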
